A study of Mus musculus with 20 samples.

Results

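The complement components and receptors described here were 9 genes, taken by symbol from the deposited count table of 43346 genes. They were the C1q chains C1qa, C1qb and C1qc, which initiate the classical pathway, the components C3, C4a and C4b, the anaphylatoxin receptors C3ar1 and C5ar1, and the regulator Serping1. All 9 symbols were in the table, each on 1 row, and all 9 passed the filter on low counts that left 19623 genes for testing.

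Complement is a cascade of plasma proteins that tags surfaces for removal. C1q binds a target and, through the proteases C1r and C1s, cleaves C4 and C2, which leads to cleavage of C3. The fragments C3a and C5a act on the receptors encoded by C3ar1 and C5ar1, and Serping1 encodes C1 inhibitor, which blocks C1r and C1s. In the brain, C1q is made mainly by microglia, C4 and C3 largely by glia, and C1q and C3 are known for tagging synapses for engulfment by microglia.

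RNA was sequenced from mouse cortex in 4 groups of 5 libraries: KI mice at 10 months, KI mice at 3 months, Control mice at 10 months and Control mice at 3 months. KI mice carried the p.A693S substitution knocked into Abca7, which encodes an ABC-family transporter of lipids, and Control mice had wild-type Abca7. Mice of all groups carried 1 copy of 5xFAD, a transgene for mutant human amyloid precursor protein and presenilin driven in neurons by the Thy1 promoter. No library without 5xFAD was analysed, so that age and time with amyloid cannot be told apart. The protocol describes male littermates, with heterozygous and homozygous knockins, and the zygosity of each KI library is not given. The labels give no strain background and do not say whether a library is 1 animal, so that p-values measure the spread between libraries.

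The libraries held 42896149 to 57447015 counts. Levels are given as CPM, a gene's counts as a rate of the library's total, scaled with TMM factors. KI replicate 5 at 10 months had 1016 CPM of Xist, against at most 3.92 CPM in any other library, and 0.0187 CPM of the Y-linked Ddx3y, against at least 48.7 CPM elsewhere, which goes against the male protocol. KI replicate 3 at 3 months lay farthest out on the second principal component, at 55.2, with the other libraries between -28.9 and 31.9. Without both libraries the same number of complement genes passed the test with age, 6 of 9 in KI and 7 of 9 in Control, and none passed between genotypes. Summed over 8 choroid plexus markers, libraries held 25.8 to 1294 CPM in KI and 30.2 to 2118 CPM in Control at 10 months. At 3 months they held 63.4 to 2231 CPM in KI and 53.0 to 1423 CPM in Control. After subtracting group means the sum had Pearson r of -0.52 with C1qb, -0.51 with C5ar1 and -0.44 with C1qc. For the other members r was -0.37 to 0.09. Fits with the marker Ttr as a covariate are given at the end.

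Sequences are shown for 2 places where they bear on the results: the C1q promoters, because the C1q genes moved together, and a stretch of C4b and C4a, because these genes are near copies whose reads can be confused. The C1q genes lie side by side on the minus strand of chromosome 4, within 18675 bases (mm10), in the order C1qb, C1qc, C1qa. The bases before C1qb (chr4:136886201-136886450) and C1qc (chr4:136893066-136893164) are from RefSeq on GRCm38.p6, minus strand, 5′ to 3′, and lie before both the RefSeq start and the gene's start in the count table, which for C1qc is further upstream. Capitals mark GAGGAA on either strand, a core motif of the myeloid factor PU.1.
C1qb: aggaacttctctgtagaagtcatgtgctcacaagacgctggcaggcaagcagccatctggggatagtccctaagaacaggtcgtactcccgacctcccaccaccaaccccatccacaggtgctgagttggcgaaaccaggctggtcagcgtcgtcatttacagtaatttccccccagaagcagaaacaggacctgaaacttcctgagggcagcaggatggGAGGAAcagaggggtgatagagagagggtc
C1qc: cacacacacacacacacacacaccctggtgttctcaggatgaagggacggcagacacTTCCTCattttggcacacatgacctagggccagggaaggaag
GAGGAA began at position -30 from the RefSeq start of C1qb on the gene's strand, and at position -193 from that of C1qc on the opposite strand. It was present on either strand in 28.3% of 32851 promoter windows of the same length (250 bases before to 50 after the start). Promoters were matched by symbol for 5 of the 9 genes: C1qb, C1qc, C3, C3ar1 and C5ar1. TTGCNNAA, a pattern of the C/EBP factors, was found at position -45 from the start of C3 and in 10.8% of all windows. A pair of GAAA with 2 bases between (interferon response, 3.44% of windows) and TTCNNNGAA (STAT factors, 8.30%) were in none of the 5 windows, and C3ar1 and C5ar1 held none of the 4 motifs. A match is a description of these letters only.

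C4b, which encodes the C4 protein that acts in the cascade, lies at chr17:34728380-34743882, and C4a, its near copy annotated as a processed transcript in the count table, at chr17:34809092-34823464, both on the minus strand. The transcripts C4b-201 and C4a-207 (GENCODE M21) shared 96.1% of 5367 aligned bases, with 207 mismatches, and 38.4% of the aligned bases lay in identical runs of at least 100 bases. The window of 60 bases with the most mismatches, 13, shows what separates them. It spans bases 2761 to 2820 of C4b-201 and 2755 to 2814 of C4a-207, 5′ to 3′, with mismatches in capitals.
C4b: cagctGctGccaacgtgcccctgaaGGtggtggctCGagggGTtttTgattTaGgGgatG
C4a: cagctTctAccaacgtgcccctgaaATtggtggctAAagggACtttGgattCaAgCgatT
How the authors assigned reads that match both is not given in the sources used here, so the counts of C4a and C4b, and their ratio, are uncertain. None of the other 7 genes had such a near copy, and the only overlapping gene was the microRNA gene Mir6978 within C3, which had 0 counts.

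The C1q chains, C4b and both anaphylatoxin receptors were higher at 10 than at 3 months in both genotypes, Serping1 and C3 passed in neither, and no complement gene passed between KI and Control. With age, 6 of 9 genes passed the test in KI (C1qa, C1qb, C1qc, C4b, C3ar1 and C5ar1), and all 6 rose, where 8.06% of all tested genes passed and 5.66% passed as higher. In Control 7 of 9 passed, the same 6 and C4a, all higher, where 4.07% of all genes passed and 3.72% passed as higher. The median log2 fold change of the 9 genes was 1.63 in KI and 1.58 in Control, and that of all tested genes was 0.00 in each. Log2 fold changes with standard errors (SE) and adjusted p-values throughout are from edgeR's quasi-likelihood test with Benjamini-Hochberg adjustment over all 19623 genes. A gene passed at an adjusted p under 0.05. The 10-month and 3-month libraries did not overlap for the same 6 genes in each genotype, where 7.17% of all genes separated the ages in KI and 5.69% in Control.

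**Figure D1:**
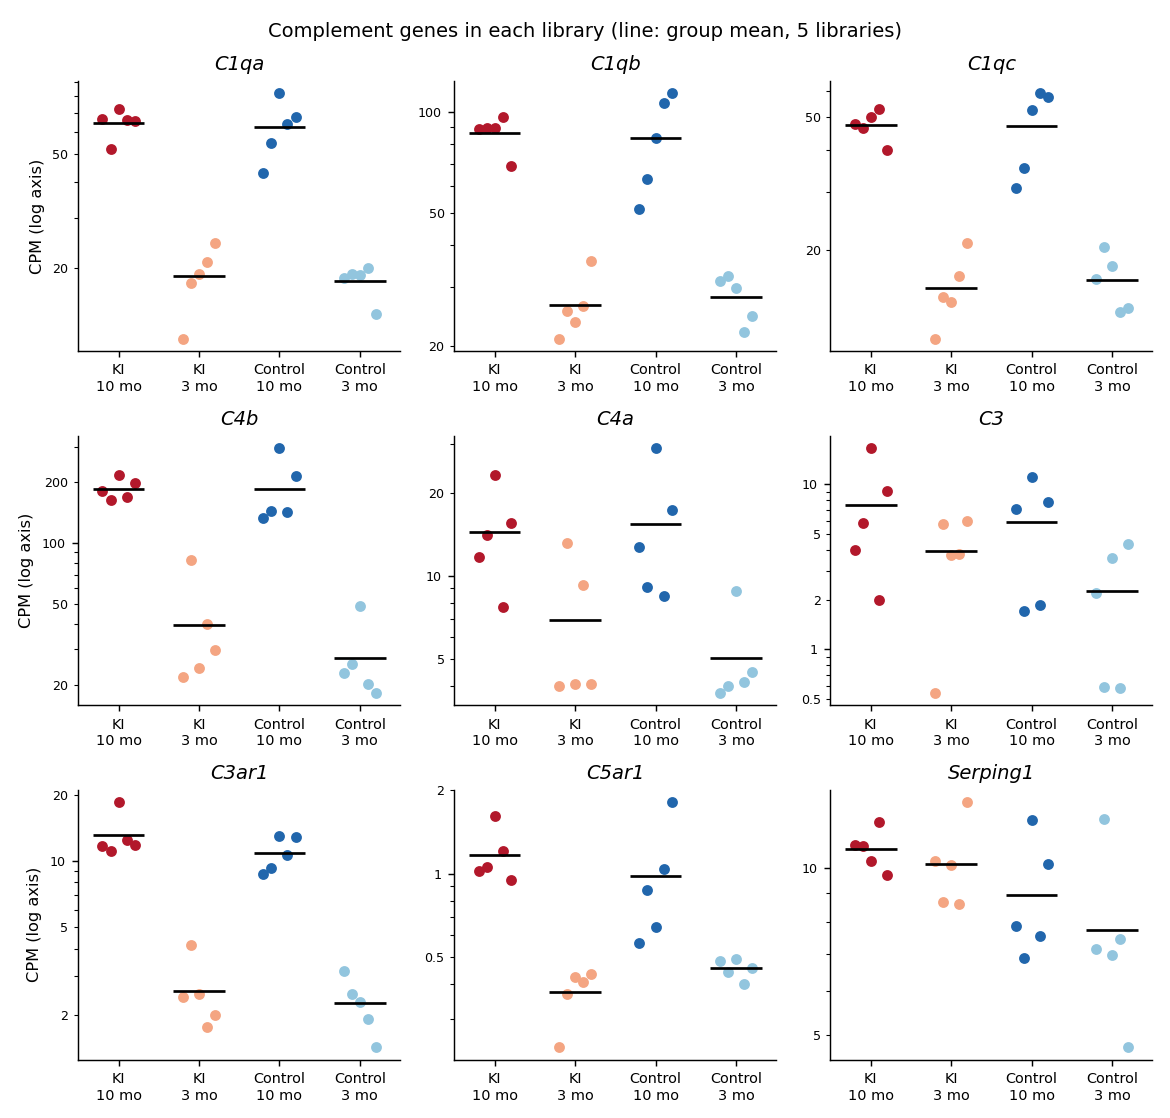
CPM of each complement gene in each library on a log axis, for KI at 10 and 3 months and Control at 10 and 3 months; points are libraries and lines are group means (5 libraries each). The C1q genes, C4b, C3ar1 and C5ar1 separate the ages in both genotypes, C3 spans 0.544 to 16.7 CPM with overlap, and Serping1 overlaps throughout.

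C1qa encodes the A chain of C1q. It had 66.7, 52.1, 72.3, 65.7 and 65.2 CPM in KI mice at 10 months, against 11.3, 17.7, 19.0, 20.96 and 24.5 CPM in KI mice at 3 months. Control mice had 43.0, 54.9, 81.9, 64.1 and 67.6 CPM at 10 months, against 18.5, 19.0, 18.9, 20.1 and 13.7 CPM at 3 months. No 10-month library fell as low as any 3-month library in either genotype. C1qa rose 3.44-fold in KI (log2 fold change 1.78 ± 0.17 SE, adjusted p = 3.54e-07, edgeR) and 3.45-fold in Control (1.79 ± 0.17 SE, adjusted p = 5.11e-07).

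C1qb, the B chain, averaged 86.7 ± 10.5 CPM in KI mice at 10 months and 26.5 ± 5.69 CPM in KI mice at 3 months (SD, n = 5 each). In Control mice it averaged 83.7 ± 26.8 CPM at 10 months and 28.0 ± 4.45 CPM at 3 months (SD, n = 5 each). It rose 3.27-fold in KI (1.71 ± 0.19 SE, adjusted p = 1.71e-06, edgeR) and 2.98-fold in Control (1.58 ± 0.19 SE, adjusted p = 6.88e-06). C1qc, the C chain, averaged 47.5 ± 4.93 CPM in KI mice at 10 months and 15.5 ± 3.79 CPM at 3 months, and 47.1 ± 13.1 CPM in Control mice at 10 months and 16.3 ± 3.08 CPM at 3 months (SD, n = 5 each). It rose 3.06-fold in KI (1.62 ± 0.18 SE, adjusted p = 3.13e-06, edgeR) and 2.89-fold in Control (1.53 ± 0.18 SE, adjusted p = 8.87e-06). For both genes the ages did not overlap in either genotype. The ratios among the C1q chains changed with age by 0.04 to 0.26 on the log2 scale, and no change passed the exact permutation test (adjusted p = 0.226 to 0.710).

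C4b had the highest counts of the 9 genes at 10 months. It had 182, 163, 217, 169 and 197 CPM in KI mice at 10 months, against 21.96, 82.2, 24.1, 39.8 and 29.7 CPM in KI mice at 3 months. Control mice had 133, 144, 296, 142 and 215 CPM at 10 months, against 22.8, 25.4, 49.0, 20.1 and 18.2 CPM at 3 months. KI replicate 4 was high among the KI libraries at 3 months, and the ages did not overlap in either genotype. C4b rose 4.69-fold in KI (2.23 ± 0.35 SE, adjusted p = 0.000290, edgeR) and 6.87-fold in Control (2.78 ± 0.36 SE, adjusted p = 3.73e-05).

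C4a had 11.7, 14.1, 23.2, 7.69 and 15.6 CPM in KI mice at 10 months, against 4.00, 13.1, 4.05, 9.29 and 4.04 CPM in KI mice at 3 months. Control mice had 12.7, 9.11, 29.1, 8.45 and 17.4 CPM at 10 months, against 3.76, 3.99, 8.83, 4.12 and 4.48 CPM at 3 months. The ages overlapped in both genotypes. The log2 fold change was 1.07 ± 0.40 in KI and did not pass (SE, adjusted p = 0.113, edgeR), and C4a rose 3.06-fold in Control (1.61 ± 0.41 SE, adjusted p = 0.0241). The Control call was lost when any of 6 of the 10 Control libraries was left out (replicates 6, 7, 9 and 10 at 3 months, replicates 8 and 10 at 10 months), with adjusted p up to 0.0925, and without the filter on low counts (adjusted p = 0.0821). In KI, C4a passed without replicate 4 at 3 months (log2 fold change 1.44, adjusted p = 0.0346).

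C3 encodes the component on which all pathways converge. It had 4.00, 5.84, 16.7, 2.00 and 9.16 CPM in KI mice at 10 months, against 0.544, 5.75, 3.71, 3.76 and 5.98 CPM in KI mice at 3 months. Control mice had 7.12, 1.72, 11.1, 1.85 and 7.81 CPM at 10 months, against 2.19, 0.588, 3.60, 0.583 and 4.35 CPM at 3 months. Its coefficient of variation was the highest of the 9 genes in 3 of the 4 groups, at 76.3% in KI at 10 months, 68.7% in Control at 10 months and 75.8% in Control at 3 months. In KI at 3 months it was 55.3%, below C4b at 62.8% and C4a at 60.3%. The log2 fold change with age was 0.93 ± 0.67 in KI and 1.40 ± 0.70 in Control (SE), and neither passed (adjusted p = 0.473 and 0.405, edgeR). The 95% interval reached 2.35 in KI and 2.88 in Control, so these libraries do not bound the change of C3 below that of C4b.

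C3ar1, the receptor for C3a, had 11.8, 11.2, 18.5, 12.4 and 11.8 CPM in KI mice at 10 months, against 2.41, 4.15, 2.48, 1.75 and 2.00 CPM in KI mice at 3 months. Control mice had 8.71, 9.27, 13.0, 10.7 and 12.8 CPM at 10 months, against 3.16, 2.48, 2.29, 1.91 and 1.42 CPM at 3 months. Every 10-month library was above every 3-month library. C3ar1 rose 5.14-fold in KI (2.36 ± 0.22 SE, adjusted p = 2.44e-07, edgeR) and 4.82-fold in Control (2.27 ± 0.23 SE, adjusted p = 6.72e-07).

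C5ar1, the receptor for C5a, was the lowest of the 9 genes, with 10 to 100 counts per library. It had 1.02, 1.06, 1.61, 1.20 and 0.950 CPM in KI mice at 10 months, against 0.236, 0.370, 0.423, 0.407 and 0.435 CPM in KI mice at 3 months. Control mice had 0.562, 0.870, 0.640, 1.04 and 1.81 CPM at 10 months, against 0.485, 0.441, 0.494, 0.402 and 0.457 CPM at 3 months. The ages did not overlap in either genotype. C5ar1 rose 3.09-fold in KI (1.63 ± 0.27 SE, adjusted p = 0.000325, edgeR) and 2.16-fold in Control (1.11 ± 0.26 SE, adjusted p = 0.0150). The Control call was lost without Control replicate 10 at 10 months (log2 fold change 0.76, adjusted p = 0.0645) and when the fit held only the Control libraries (adjusted p = 0.0501).

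Serping1, the gene for C1 inhibitor, did not pass with age in either genotype. It had 11.0, 10.9, 10.3, 12.1 and 9.70 CPM in KI mice at 10 months, against 10.3, 8.67, 10.1, 8.62 and 13.1 CPM in KI mice at 3 months. Control mice had 7.85, 6.89, 12.2, 7.56 and 10.2 CPM at 10 months, against 7.16, 12.3, 6.97, 7.45 and 4.76 CPM at 3 months. The groups overlapped, and the log2 fold change with age was 0.09 ± 0.19 in KI and 0.21 ± 0.19 in Control (SE, adjusted p = 0.849 and 0.764, edgeR). The 95% intervals ended at 0.49 in KI and 0.62 in Control, below the fitted changes of the 6 genes that passed in both genotypes.

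**Figure D2:**
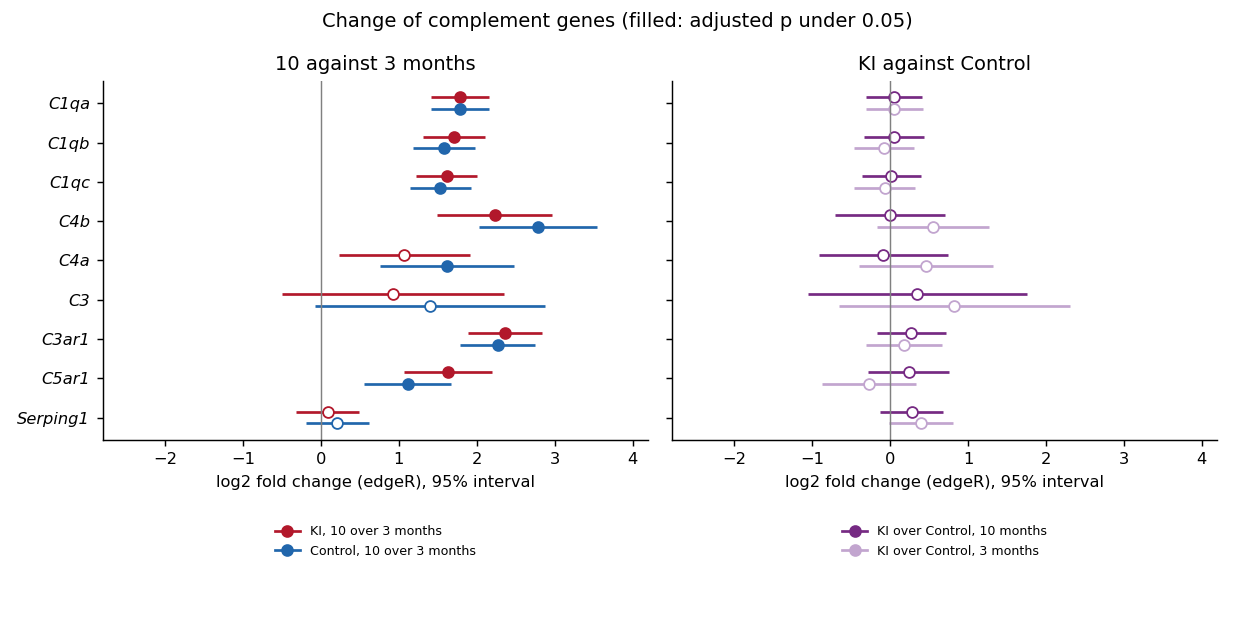
Log2 fold changes from edgeR with 95% intervals for each complement gene, 10 over 3 months in KI and in Control (left) and KI over Control at 10 and at 3 months (right); filled points have an adjusted p under 0.05. With age the C1q genes, C4b, C3ar1 and C5ar1 are filled in both genotypes and C4a in Control alone (the difference between genotypes did not pass); no point is filled between genotypes.

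Between genotypes no complement gene passed. The count was 0 of 9 at 10 months, where 0.0612% of all genes passed, 0 of 9 at 3 months, where 0.0255% passed, and 0 of 9 averaged over the ages, where 0.0764% passed. For the difference of the age changes it was 0 of 9, where 0% of all genes passed. At an unadjusted p under 0.05 the counts by edgeR were 0 at 10 months, where 7.86% of all genes were under it, 0 at 3 months (3.80%), 1 averaged over the ages (6.52%) and 0 for the difference of the age changes (4.50%), and DESeq2 and limma-voom also called 0 of 9 in each. No gene's groups separated KI from Control, against 1.49% of all genes at 10 months and 0.657% at 3 months. The gene at an unadjusted p under 0.05 was Serping1, with a log2 fold change of KI over Control of 0.33 ± 0.14 averaged over the ages (SE, adjusted p = 0.709, edgeR).

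The intervals bound the C1q genes more closely than C4 and C3. At 10 months the 95% interval of KI over Control was -0.31 to 0.40 for C1qa, -0.33 to 0.43 for C1qb and -0.37 to 0.39 for C1qc on the log2 scale. For C4b at 10 months it was -0.71 to 0.70, and for C3 -1.06 to 1.75. C3ar1 had a log2 fold change of 0.27, with an interval of -0.17 to 0.71, and C5ar1 of 0.24, with an interval of -0.28 to 0.76. These intervals leave room for a difference, and the data do not show that the genotypes are alike.

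The markers of meningeal fibroblasts and border macrophages are given beside Serping1. At 3 months 8 of 8 meningeal fibroblast markers had a positive log2 fold change of KI over Control (median 0.42), and 0 passed by edgeR, DESeq2 or limma-voom. By edgeR 4 had an unadjusted p under 0.05, where 3.80% of all genes did. The summed level of the markers overlapped, at 161 to 267 CPM in KI and 98.8 to 206 CPM in Control. With age in KI these markers had a median log2 fold change of -0.56, with 140 to 171 CPM at 10 months, against 161 to 267 CPM at 3 months. Of the 8 markers 0 passed by edgeR, 4 by DESeq2 and 5 by limma-voom. Over all genes 1582 passed with age in KI by edgeR, 2092 by DESeq2 and 3027 by limma-voom. In Control the median with age was -0.21, with 107 to 223 CPM at 10 months, against 98.8 to 206 CPM at 3 months. Border macrophage markers had a log2 fold change of KI over Control above 0 for 8 of 8 at both ages (median 0.52 at 10 months and 0.31 at 3 months). Of these 0 passed by edgeR, DESeq2 or limma-voom. At an unadjusted p under 0.05 by edgeR there were 3 at 10 months (7.86% of all genes) and 0 at 3 months (3.80%). Their summed levels were 13.1 to 20.9 CPM in KI and 5.26 to 16.5 CPM in Control at 10 months. At 3 months they were 14.4 to 19.9 CPM in KI and 6.31 to 16.5 CPM in Control. After subtracting group means, Serping1 correlated over the 20 libraries with the meningeal sum (Pearson r = 0.60) and the border macrophage sum (r = 0.71), and its closest genes were Lrrn4cl (0.88), Olfml2a (0.85) and Aldh1a2 (0.83). The part of these cells in the Serping1 values was not tested.

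Per kilobase of the gene length in the count table, the order of mean levels at 10 months was the same in both genotypes: C1qb, C1qa, C4b, C1qc, Serping1, C3ar1, C4a, C3 and C5ar1. In KI mice at 10 months the means were 79.7, 62.0, 32.6, 24.6, 4.64, 3.05, 2.33, 1.47 and 0.455 CPM per kilobase in that order. Each gene was above the next in 5 of 5 of these libraries, except C3 over C5ar1, in 4 of 5. In Control mice at 10 months C3ar1 was above C4a in 3 of 5 libraries and C3 above C5ar1 in 3 of 5. Neither pair differs beyond the spread. C1qb was above C1qa, and C4b above C1qc, in 4 of 5 of these Control libraries.

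At 3 months C1qb led again, at 24.3 CPM per kilobase in KI and 25.8 in Control, and C4b stood behind C1qc. In KI mice at 3 months C1qc averaged 8.01 and C4b 6.94 CPM per kilobase, with C1qc the higher in 4 of 5 libraries, and C4b was above Serping1, at 4.37, in 2 of 5. In Control mice at 3 months C4b, at 4.76 CPM per kilobase, was above Serping1, at 3.32, in 4 of 5 libraries. C3ar1 was below C4a at 3 months in both genotypes' means, at 0.594 CPM per kilobase in KI and 0.523 in Control.

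Changes were then compared between the genes, as the log2 ratio of each pair in each library at 10 against 3 months. Of 36 pairs, 13 changed in KI and 16 in Control by the 2-sided exact permutation test, with p-values adjusted over 108 tests and a smallest possible p of 0.00794. These ratios had 0.5 CPM added before the logarithm, which is close to the level of C5ar1. With 0.05 CPM added, 8 pairs passed in KI and 8 in Control. The 5 pairs lost in KI all held C5ar1. Of the 8 lost in Control, 3 held C5ar1 and 5 did not: C4b with each C1q chain, C1qc with C3ar1, and C4a with Serping1, each with an adjusted p of 0.0451 before and 0.0519 after (exact permutation test). The unadjusted p of each of these 5 was 0.0159 with either amount added (exact permutation test). For them only the adjustment over the 108 tests differed. Pairs with C5ar1 are not described further. Without Control replicate 8 at 10 months 9 pairs passed in Control.

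Serping1 fell relative to each C1q chain, C4b and C3ar1 in both genotypes. The log2 ratio of C1qa to Serping1 was higher at 10 months by 1.70 in KI and 1.51 in Control, and that of C4b to Serping1 by 2.29 in KI and 2.55 in Control (exact permutation test, adjusted p = 0.0268 each). The ratio of C4a to C4b was lower at 10 months, by -1.29 in KI and -1.34 in Control (exact permutation test, adjusted p = 0.0268 each), with shared reads as a limit on both counts. C4b against the C1q chains passed in Control, where the log2 ratio of C1qa to C4b was -1.53 ± 0.27 at 10 months and -0.49 ± 0.51 at 3 months (SD, n = 5 each; exact permutation test, adjusted p = 0.0451), and did not pass in KI. These were among the pairs lost with 0.05 CPM added, with differences of about the same size (-1.04 for C1qa to C4b) and the same unadjusted p. The difference between the genotypes in these ratios was not tested. No pair with C3 passed in either genotype.

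The 8 pan-myeloid markers (Csf1r, Aif1, Ptprc, Laptm5, Ly86, Spi1, Irf8 and Cd53) all rose with age too, 8 of 8 in both genotypes, with a median log2 fold change of 1.33 in KI and 1.30 in Control. Their summed level was 333 to 403 CPM in KI mice at 10 months, against 145 to 177 CPM in KI mice at 3 months, and 278 to 359 CPM in Control mice at 10 months, against 130 to 172 CPM in Control mice at 3 months. In bulk cortex, more cells of a type and more RNA per cell cannot be told apart. Other lists that moved beside the complement genes were the microglial genes of the disease-associated state, of which 14 of 15 rose in KI and 13 in Control, and the reactive astrocyte genes, of which 5 of 8 rose in each. Of the 10 homeostatic microglial genes 8 rose in KI and 7 in Control, and of the 10 interferon response genes 6 in KI and 8 in Control. The thalamus markers, with 5 of 7 lower at 10 months in KI and 1 in Control, moved the other way. Of all tested genes, 5.66% passed as higher with age in KI and 3.72% in Control. In either direction 8.06% passed in KI and 4.07% in Control. The part of any of these lists in the complement changes was not tested.

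Set against the summed pan-myeloid markers, the complement genes fell into different positions. Relative to the markers C1qa was higher at 10 months by 0.65 in KI and 0.64 in Control on the log2 scale, C4b by 1.24 in KI and 1.69 in Control, and C3ar1 by 1.03 in KI and 0.97 in Control (exact permutation test, adjusted p = 0.0268 each). Serping1 was lower relative to the markers, by -1.05 in KI and -0.87 in Control (adjusted p = 0.0268 each, exact permutation test). C1qb passed in KI, at 0.56 (adjusted p = 0.0451, exact permutation test), and had 0.42 in Control (adjusted p = 0.105), and with 0.05 CPM added the KI value missed the threshold (adjusted p = 0.0519, exact permutation test). The unadjusted p of C1qb in KI was 0.0159 with 0.5 or 0.05 CPM added (exact permutation test). C1qc had 0.46 in KI and 0.38 in Control, C3 -0.35 in KI and 0.09 in Control, and C4a -0.05 in KI and 0.34 in Control, and none of these passed. C5ar1 had -0.22 in KI and -0.52 in Control and did not pass (adjusted p = 0.0779 each, exact permutation test). With 0.05 CPM added C5ar1 had 0.38 in KI and -0.18 in Control, and neither passed. Between genotypes 0 of 9 ratios to the markers passed at either age.

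**Figure D3:**
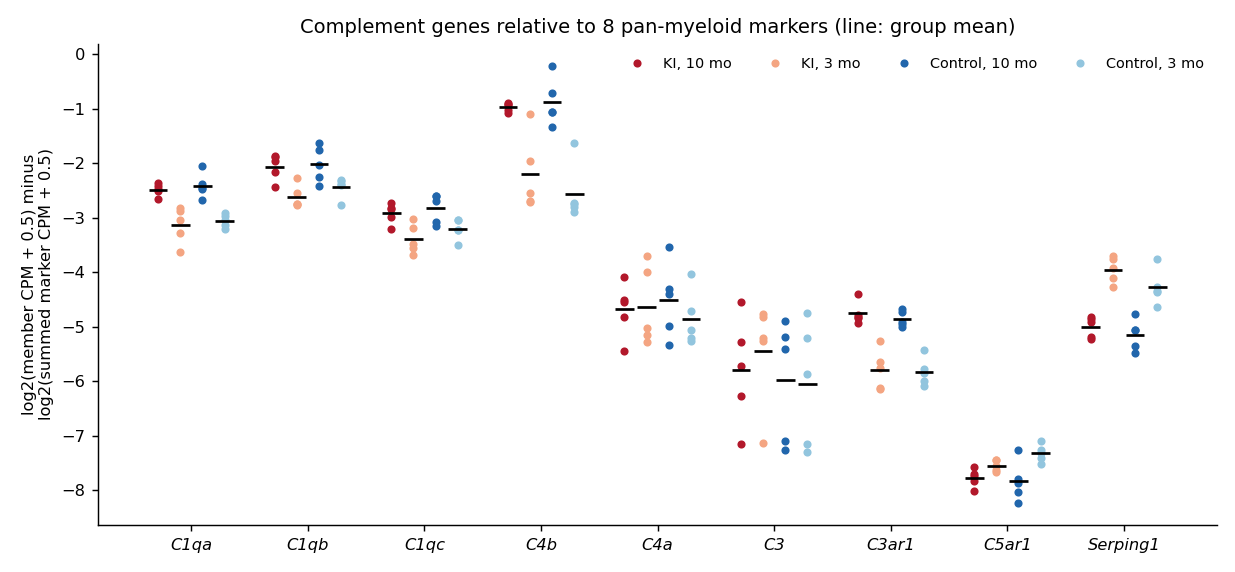
Log2 ratio of each complement gene to the summed CPM of 8 pan-myeloid markers, per library (points) and as group means (lines) for KI at 10 and 3 months and Control at 10 and 3 months. The plotted values have 0.5 CPM added to the complement gene and nothing added to the marker sum, although the axis label writes + 0.5 for both. C1qa, C4b and C3ar1 sit higher at 10 months and Serping1 lower, in both genotypes; C5ar1 is close to the added 0.5 CPM.

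The genes whose levels were most like each complement gene are given by Pearson r over the 20 libraries, which share the age difference, and over the same libraries after subtracting group means. Over the 20 libraries C1qa was closest to the myeloid genes Laptm5, Cd14, Grn, Ctsz and Hvcn1, each with r = 0.98, and C3ar1 to Mpeg1, Apbb1ip, Cx3cr1, Lilrb4 and Ctss, each with r = 0.98. C4b was closest to Itgb2 (0.97), Arl11, Myo1f, Ip6k3 and Slc11a1, and C5ar1 to Cd37 (0.93), Adcy7, Csf2rb2, Olfml3 and Alox5. C3 was closest to Stk19 (0.77), Nans, Ddc, H2-Ob and Msh5. Serping1 was closest to Lrrn4cl (0.85), Slc22a2, Anxa1, Stbd1 and Olfml2a.

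After subtracting group means the order changed. C1qb and C1qc still varied together (r = 0.95), and C1qa less closely with each (0.60 with C1qb, 0.75 with C1qc). C1qa was closest to Arpc1b (0.95), Tnfaip8l1 and Snx8, and C3ar1 to Trim30d (0.81), Pik3cg and Itgam. C5ar1 was closest to Csf2rb2 (0.83), 9330104G04Rik and Tmc4. For C1qb, C1qc and C4a, which the naming rule does not cover here, the closest genes were looked up afterwards: Asap3, a neighbour on chromosome 4, came first for C1qb (0.86) and C1qc (0.90), and Stk19 for C4a (0.96).

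For C4b and C4a the closest genes included neighbours on chromosome 17. After subtracting group means, C4b was closest to Stk19 (0.85), H2-Ob (0.81) and Arl11 (0.81), and C4a to Stk19 (0.96), Msh5 (0.96) and H2-Ob (0.95). Stk19 lies at chr17:34823993-34836945, next to C4a. Of the 20 genes closest to C4a, 14 were on chromosome 17 and 11 within 10 megabases, and of those closest to C4b, 11 and 10. Closest genes and shares here are among genes with a mean of at least 1 CPM, members excluded. Chromosome 17 holds 4.75% of these genes and the window of 10 megabases 2.03%. C3, on chromosome 17 but more than 20 megabases away, was closest to Lhfp (0.77), Nans (0.76) and Stk19 (0.73), with 5 of 20 on its chromosome and 0 within 10 megabases. For C1qc 6 of 20 were on chromosome 4 and 5 within 10 megabases, for C1qb 5 and 4, and for C1qa 0 and 0, where the chromosome holds 6.19% of genes and the window 1.58%. For C5ar1 7 of 20 were on chromosome 7 (7.53% of genes) and 3 within 10 megabases (1.04%).

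H2-T22, a class I histocompatibility gene of the same region, ran against C4a (r = -0.78 after subtracting group means), C4b (-0.69) and C3 (-0.54). It was chosen after its values were seen. H2-T22 had 24.7, 16.1, 1.82, 31.8 and 13.4 CPM in KI mice at 10 months, and 21.2, 1.44, 23.2, 13.8 and 24.1 CPM in KI mice at 3 months. Control mice had 15.0, 30.0, 16.6, 30.7 and 14.2 CPM at 10 months, and 22.3, 22.6, 11.3, 22.6 and 21.98 CPM at 3 months. KI replicate 4 at 3 months, with the lowest H2-T22, had the highest C4a and C4b of the 3-month libraries, and KI replicate 5 at 10 months, the next lowest, the highest C3 of all 20 and the highest C4a and C4b of the KI libraries. The highest C4a and C4b of all 20 were in Control replicate 8 at 10 months, at 29.1 and 296 CPM, with 16.6 CPM of H2-T22. The part of a sequence difference between animals in this region was not tested, and the labels give no strain background. With the log2 level of H2-T22 as a covariate, the age change of C4a passed in KI (log2 fold change 1.17, adjusted p = 0.00605, edgeR), an alternative added after seeing the data.

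**Figure D4:**
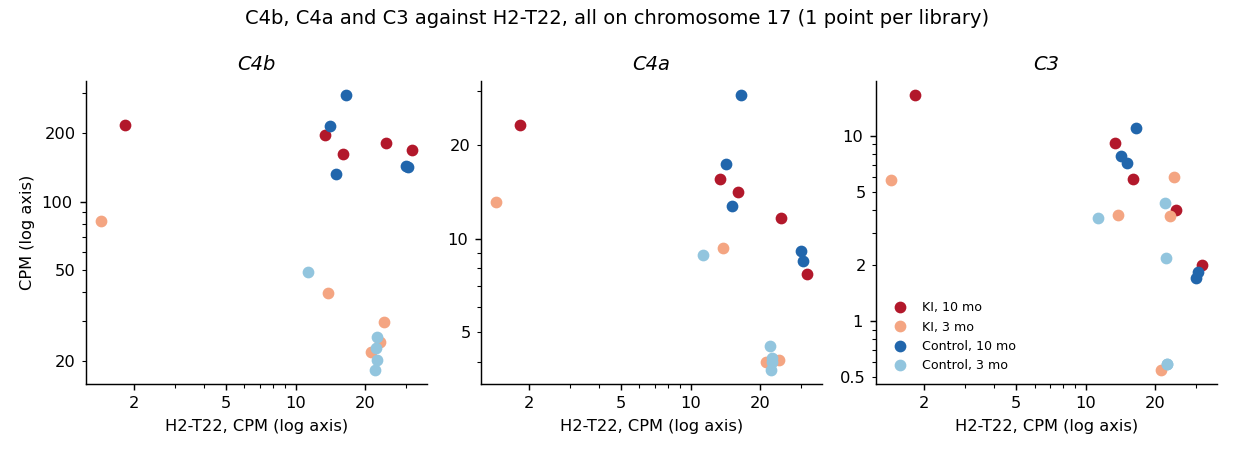
CPM of C4b, C4a and C3 against CPM of H2-T22 in each of the 20 libraries, both axes logarithmic; points are libraries, for KI at 10 and 3 months and Control at 10 and 3 months. Within an age, the libraries low in H2-T22 (1.44 and 1.82 CPM) are high in C4a, at 13.1 and 23.2 CPM, and the 4 Control libraries at 3 months near 22.3 CPM of H2-T22 have 3.76 to 4.48 CPM of C4a.

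Genes of the cascade outside these 9 were described in 6 lists. Of the 10 tested classical and lectin pathway genes, 3 rose with age in each genotype and none fell. Of all tested genes 5.66% passed as higher in KI and 3.72% in Control. C1ra and C1s1, the proteases of the C1 complex, had log2 fold changes of 0.60 ± 0.13 and 0.60 ± 0.16 in KI (SE, adjusted p = 0.00527 and 0.0184, edgeR) and 0.51 ± 0.13 and 0.56 ± 0.16 in Control (adjusted p = 0.0266 and 0.0460). The third was the copy C1rb in KI (1.07 ± 0.33 SE, adjusted p = 0.0468, edgeR) and the copy C1s2 in Control (0.75 ± 0.21 SE, adjusted p = 0.0420). These are duplicated genes whose reads may be shared. C2, whose protein is cleaved together with C4, had 0.46 ± 0.28 in KI and 0.48 ± 0.29 in Control and did not pass (SE, adjusted p = 0.379 and 0.537, edgeR).

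In the alternative pathway 0 of 2 passed, and Cfb, encoding factor B, had 0.70 ± 0.46 in KI and 0.76 ± 0.49 in Control (SE, adjusted p = 0.413 and 0.584, edgeR). In the terminal pathway 0 of 3 passed: C7 had 0.20 ± 0.16 in KI and 0.34 ± 0.16 in Control (SE, adjusted p = 0.530 and 0.376, edgeR). Hc, the gene for C5 and thus for the ligand of C5ar1, averaged 0.843 CPM in KI and 0.753 CPM in Control at 10 months. Of 13 regulators besides Serping1, 1 fell in KI, Cd55, which speeds the decay of C3 convertases (-0.65 ± 0.17 SE, adjusted p = 0.0184, edgeR), and 1 rose in Control, Cd59b, a blocker of the membrane attack complex (0.71 ± 0.19 SE, adjusted p = 0.0316), counts near the shares of all genes that passed (8.06% in KI, 4.07% in Control). Neither age change differed between genotypes by the test of the difference (adjusted p = 0.999 each, edgeR).

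Of 6 other receptors, 3 rose in both genotypes, the integrin chains of complement receptors 3 and 4. The share of all genes that passed as higher was 5.66% in KI and 3.72% in Control. Itgax, which also marks activated microglia, averaged 26.6 ± 8.87 CPM in KI mice at 10 months and 0.741 ± 0.283 CPM at 3 months, and 20.0 ± 3.26 CPM in Control mice at 10 months and 0.782 ± 0.388 CPM at 3 months (SD, n = 5 each). Its log2 fold change was 5.16 ± 0.32 in KI and 4.65 ± 0.31 in Control (SE, adjusted p = 5.80e-10 and 3.56e-09, edgeR). Itgb2 rose by 1.43 in KI and 1.70 in Control, and Itgam by 0.85 in KI and 0.84 in Control, on the log2 scale. Cd93, once described as a C1q receptor and expressed by endothelium, fell in KI (-0.74 ± 0.14 SE, adjusted p = 0.00149, edgeR) and had 0.04 ± 0.14 in Control, and the difference did not pass (adjusted p = 0.674). Beside it, 2 of 7 endothelial markers fell and 1 rose in KI with age, and 0 of 7 passed in Control. Among all genes, 8.06% passed with age in KI and 4.07% in Control. The 4 neuronal genes whose proteins bind or oppose C1q (Nptx1, Nptx2, Nptxr and Srpx2) had 0 passing, with Nptx2 at -0.38 ± 0.14 in KI (SE, adjusted p = 0.113, edgeR). Between genotypes 0 of the 38 tested genes of these 6 lists passed by edgeR, DESeq2 or limma-voom in any of the 4 comparisons. At an unadjusted p under 0.05 edgeR gave 4 of 38 at 10 months (7.86% of all genes), 2 at 3 months (3.80%), 4 averaged over the ages (6.52%) and 3 for the difference of the age changes (4.50%). Another 15 genes of the lists, among them Cfd, C6, C9 and Vsig4, were not tested because of low counts or no row in the table.

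**Figure D5:**
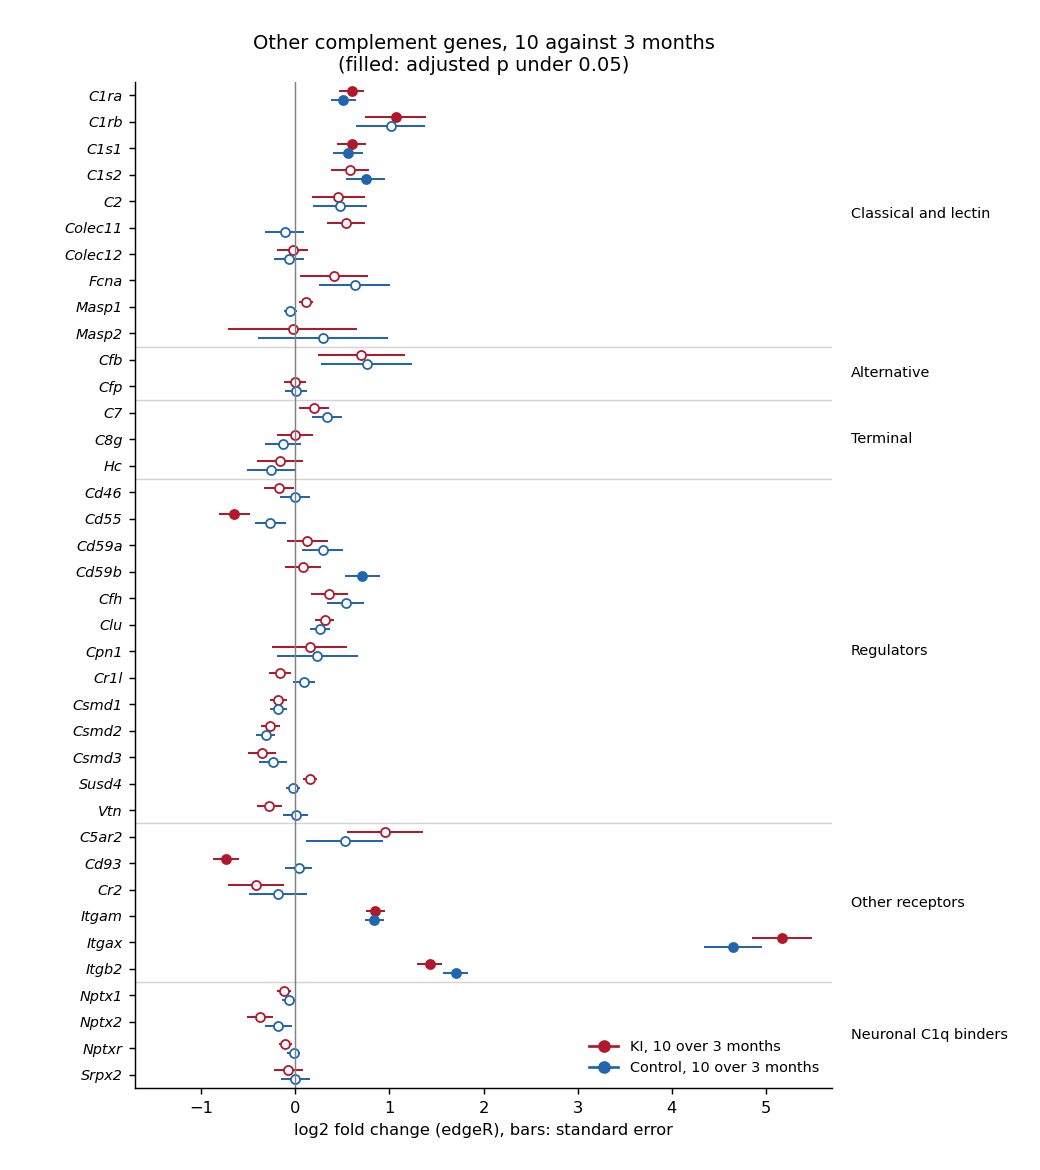
Log2 fold changes from edgeR of 38 other complement genes, 10 over 3 months in KI and in Control, with standard errors; filled points have an adjusted p under 0.05 and gene groups are named at the right. Itgax stands at 5.16 and 4.65, Itgb2, Itgam and the C1 proteases are higher at 10 months, and most other genes lie within 1 of 0.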

How the data were processed

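Cortex RNA of 20 libraries was analysed. The deposited table holds raw whole-number counts per gene on mm10, per the submitters' processing notes and the file headers. The aligner, the counter and its strand setting are not given in the sources used here. Libraries took their groups from their titles, and no unmapped column was used. Mitochondrial genes (37) had 0 counts.

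From the counts, genes were filtered with filterByExpr, scaled by TMM and tested with edgeR 4.0.16 (R 4.3.3) quasi-likelihood fits over all 4 groups, adjusting over 19623 genes. CPM uses the library totals (42896149 to 57447015 counts) multiplied by TMM factors, and per kilobase levels use the table's gene length. Ratios are differences of log2(CPM + 0.5), with nothing added to the summed markers, tested by exact permutation over samples. DESeq2 1.42.0, limma-voom (limma 3.58.1) and other settings were alternatives. Transcripts were compared with blastn 2.17.0. In data simulated for age in KI (19462 genes), 12% of 50 genes changed 1.2-fold, 78% at 1.5-fold and 92% at 2-fold were recovered.

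The members and gene lists were chosen with earlier results of these data known. Named were all 9 members, from each other list up to 4 called genes (otherwise the 1 of smallest p), and the 5 and 3 most correlated genes of C1qa, C3, C4b, C3ar1, C5ar1 and Serping1. Some genes, among them C2 and Hc, were named outside this rule.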

Additional observations from a re-analysis of the deposited data

Results flagged for a closer look

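In groups of 5 libraries, the highest or lowest library was set apart from the others by more than Dixon's 95% critical value of 0.710 for 5 of 36 combinations of gene and group, where chance gives about 1 in 20. C1qa had 13.7 CPM in Control replicate 10 at 3 months, below the others of its group (gap over range 0.752). C1qb had 68.9 CPM in KI replicate 7 at 10 months, below the others (0.711). Control replicate 8 at 3 months was above its group in C4a, at 8.83 CPM (0.857), and in C4b, at 49.0 CPM (0.768), and its H2-T22 level, 11.3 CPM, was the lowest of that group. C3ar1 had 18.5 CPM in KI replicate 5 at 10 months, the library with high Xist, above the others (0.827).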

How the results depend on the processing

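With age, the calls of C1qa, C1qb, C1qc, C4b and C3ar1 held in both genotypes under every alternative run, and 5 to 7 of 9 genes passed in each genotype. A minimum of 1 CPM removed C5ar1 (5 passed in KI, 6 in Control). With limma-voom C4a passed in KI (1.13, adjusted p = 0.0393). Leaving out 1 library, the C4a change was 1.25 to 1.91 in Control and 0.83 to 1.44 in KI, that of C5ar1 in Control 0.76 to 1.26, and 9 to 17 ratio pairs passed in Control. With 0.05 CPM added, an alternative chosen after seeing the data like those with H2-T22 or without both KI libraries, 8 pairs passed in KI and 8 in Control. Between genotypes no complement gene passed under any alternative, and some values changed sign. Not all of these were near 0 in the main fit. Among them were C3 (0.348) and C3ar1 (0.270) at 10 months, and C3ar1 (0.223) and C4a (0.185) averaged over the ages. With limma-voom the values of changed sign were 0.0998 for C4b at 10 months and, averaged over the ages, 0.0209 for C1qb and 0.0244 for C1qc. Libraries of the same replicate number shared little expression beyond their group: 4 of 18 pairs had r above 0.1 (-0.542 to 0.395), and 2 of 20 libraries correlated best with their own number. The titles do not say what the numbers stand for, and the main fit did not pair by them. Only numbers 6 and 7 occur in both genotypes. With the number as a block, the level of KI against Control is therefore set through these numbers alone. The other numbers inform only the age changes. With the replicate block 6 complement genes passed in KI and 7 in Control, and sign changes were 0.125 (C1qb), 0.177 (C1qc) and -0.117 (C3ar1) at 3 months, 0.258 (C4a), 0.265 (C4b) and -0.00591 (C3ar1) at 10 months, 0.225 (C1qb), 0.251 (C1qc), -0.0612 (C3ar1) and 0.218 (C5ar1) averaged, and 0.0493 for C1qa in the difference of age changes. With choroid plexus marker Ttr as covariate they were -0.0426 (C1qb) and -0.0694 (C1qc) at 10 months and -0.0223 (C3ar1, difference of age changes). With H2-T22 they were -0.00680 (C3ar1, 3 months), -0.132 (C3, 10 months) and -0.171 (C4a, averaged). Without both KI libraries that stood apart they were 0.0339 (C1qc, 3 months), -0.00601 (C1qa), -0.0188 (C1qc) and -0.185 (C3) at 10 months, 0.0114 (C1qb) and 0.00757 (C1qc) averaged, and -0.0527 (C1qc) and -0.0927 (C3ar1) in the difference of age changes. Leaving out 1 library, ranges crossing 0 were at 10 months -0.0588 to 0.167 (C1qa), -0.0823 to 0.179 (C1qb), -0.108 to 0.0957 (C1qc), -0.173 to 0.702 (C3), -0.324 to 0.278 (C4a) and -0.105 to 0.225 (C4b); at 3 months -0.0748 to 0.190 (C1qa), -0.221 to 0.0338 (C1qc) and -0.0681 to 0.334 (C3ar1). Averaged over the ages they were -0.0125 to 0.116 (C1qa), -0.0882 to 0.0497 (C1qb), -0.104 to 0.0198 (C1qc) and -0.0900 to 0.153 (C5ar1), and for the difference of age changes -0.147 to 0.125 (C1qa), -0.00109 to 0.281 (C1qb), -0.0372 to 0.234 (C1qc), -0.0637 to 0.338 (C3ar1) and -0.365 to 0.0151 (Serping1). The cause of these changes was not tested. Over all genes, 1582 passed with age in KI (3027 by limma-voom, 958 with only the compared libraries) and 799 in Control (1254 by limma-voom). Between genotypes 12 passed at 10 months (59 by DESeq2, 75 by limma-voom, 4 with the replicate block, 7 with only the compared libraries, 7 with Ttr), 5 at 3 months (12 by DESeq2, 12 by limma-voom), 15 averaged (49 by DESeq2, 58 by limma-voom, 4 with the block, 31 at a threshold of 0.10) and 0 for the difference of age changes (4 by DESeq2, 3 by limma-voom). Depth limits C5ar1, with 10 to 100 counts per library.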
